A study of Homo sapiens with 6 samples.

Results

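Aminoacyl-tRNA synthetases join each amino acid to its transfer RNA and so supply every ribosome with charged tRNA. Human cells make one set of these enzymes for the cytosol and another for the mitochondrion, both from nuclear genes, and for most amino acids the gene of the mitochondrial enzyme carries the same name with a 2 at its end. In the cytosol a part of the enzymes sits in the multisynthetase complex, held together by the scaffold proteins AIMP1, AIMP2 and EEF1E1 (AIMP3), while the rest work outside it. Many cytosolic synthetase genes are known targets of ATF4, the transcription factor of the amino acid response.

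The family described here held 39 genes among the 19330 transcripts of the table, with 1 transcript listed for each gene. They were found by gene symbol, under the older or the current name, from a list made with earlier results of these data known. They comprised 20 cytosolic synthetase genes, 3 scaffold genes and 16 mitochondrial synthetase genes. The table uses the older symbols, so that AARS is AARS1 today and likewise for most cytosolic genes. All 39 had enough counts to be tested.

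The values came from ribosome profiling (Ribo-Seq), in which the pieces of mRNA covered by ribosomes are sequenced and counted as footprints. Cells of K562, a human chronic myelogenous leukemia line with erythroid features, carried pLentiCRISPRv2 with Cas9 and a guide RNA, and every culture was selected with puromycin for 48 h and kept until day 10 after infection. The 3 sgCtrl libraries came from cells with control guides to the olfactory receptor genes OR11A1 and OR2M4 (written OR2M49 in the labels), and the 3 sgN6AMT1 libraries from cells with a guide to N6AMT1, each library from a separate transduction. N6AMT1 is the methyltransferase that modifies the GGQ motif of eRF1, the factor that releases the finished protein at a stop codon. The labels do not say which control guide a library carried and mention no single-cell cloning, and the comparison asked what depletion of the enzyme does to ribosome occupancy.

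Library totals ran from 1821356 to 2969736 counts, and levels are given in CPM, the footprint count scaled to the library's size. N6AMT1 itself was at 12.5 ± 4.24 CPM (SD, n = 3) in control and 4.20 ± 0.275 CPM in depleted libraries, lower by edgeR at -1.51 on the log2 scale (SE 0.31, adjusted p = 6.69e-05). All 11 erythroid markers of K562 were counted in every library, with a summed level of 27506 to 29012 CPM in sgCtrl and 27855 to 28788 CPM in sgN6AMT1. Most of the sum was HBG1 and HBG2, at 9553 and 9920 CPM in sgCtrl and 9483 and 9851 CPM in sgN6AMT1. By edgeR, HBE1 (0.48) and TAL1 (0.48) were higher. LMO2 (-1.44), KLF1 (-0.37), TFRC (-0.33), GATA1 (-0.29) and HBZ (-0.27) were lower. Thus 63.6% of the markers were called, beside 26.9% of all genes and 56.0% of those with a mean of at least 200 CPM. Of 10 markers of other cell types, MS4A1, CD14 and KRT5 were at 0 in all libraries, and the sum of the 10 ran from 172 to 202 CPM in sgCtrl and from 194 to 216 CPM in sgN6AMT1. Most of it was EPCAM, at 177 ± 13.8 and 184 ± 10.6 CPM (SD, n = 3). ITGAM, a myeloid integrin subunit, had 2, 1 and 0 counts in sgCtrl and 17, 9 and 15 counts in sgN6AMT1, or 1.00, 0.345 and 0 CPM against 7.45, 3.89 and 8.14 CPM. The groups were apart. The filter on low counts removed it from the edgeR test, and it was past the threshold as higher in all 6 of the alternatives that tested it, with log2 fold changes of 3.26 to 4.64 (DESeq2 3.88, adjusted p = 0.00160). The part of this marker in the results on the synthetases was not tested. Footprints follow mRNA abundance as well as its translation, and a change in the one cannot be told apart from a change in the other here, nor fewer cells of a kind from less RNA per cell.

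Of the 39 genes, 12 were lower and 1 was higher in N6AMT1-depleted cells, and 26 did not pass the test, an edgeR adjusted p under 0.05. Across the 9202 genes tested, 26.9% passed, 13.9% lower and 12.9% higher. Scaling to total counts alone moved the split over all genes, with 1560 higher and 976 lower against 1191 and 1282 with the TMM factors used here. The median log2 fold change was -0.15, beside 0.01 over all genes tested. The 20 cytosolic enzymes held most of the calls, with 9 lower (among them QARS, VARS, FARSA, IARS, EPRS, LARS, KARS and FARSB), 1 higher (WARS) and 10 that did not pass, and a median of -0.15. Among the scaffold genes EEF1E1 and AIMP1 were lower. Among the 16 mitochondrial enzymes IARS2 alone passed, and it was lower. The mean level of QARS, whose change was the largest of the family, fell by 33.1%, and 23.1% of the 1282 lower genes lay further from 0.

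Calls were more frequent among genes with more counts, so the shares are given within ranges of CPM too. Of the 1013 genes with a mean of at least 200 CPM, 40.8% were lower and 15.2% higher, with a median of -0.09. Of these, 17 were cytosolic synthetases, of which 8 were lower and 1 higher, with a median of -0.12. Most mitochondrial synthetases lay between 10 and 50 CPM, where 7.75% of 4143 genes were lower, and none of the 12 there passed. The median SE of a log2 fold change was 0.06 for cytosolic and 0.13 for mitochondrial enzymes, so a change of the size seen for LARS or KARS was not detectable for most of the latter at this depth.

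**Figure D1:**
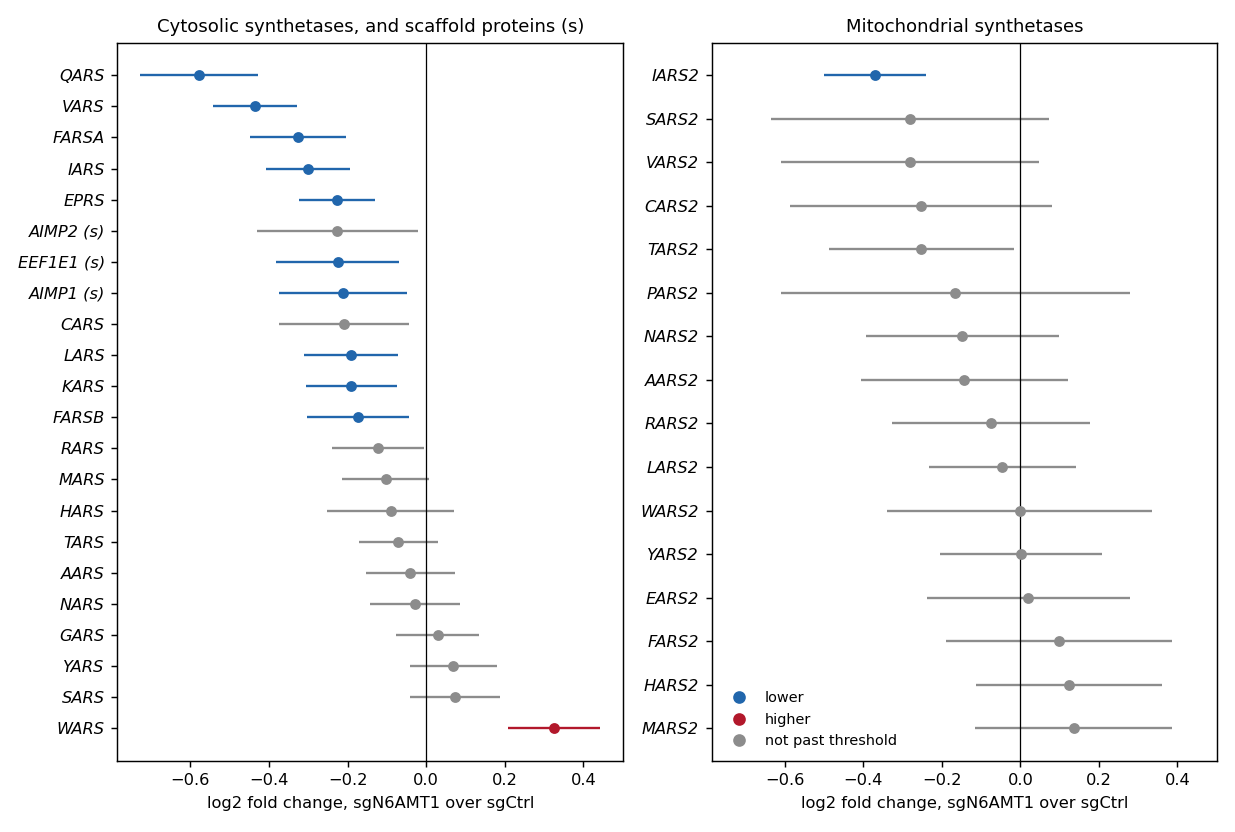
Log2 fold change of footprints, sgN6AMT1 over sgCtrl, for 38 genes of the family (points) with 95% intervals from the SE (bars), cytosolic enzymes and scaffold genes on the left and mitochondrial enzymes on the right. QARS lies lowest at -0.58 and WARS highest at 0.33, and the bars of most mitochondrial enzymes, though not of IARS2, are wider than those of the cytosolic ones.

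The release factor eRF1, which N6AMT1 modifies, reads the stop codon, so the ends of the coding sequences are shown for 5 of the genes whose call held in every alternative. Each line gives the last 24 coding bases on the coding strand, 5′ to 3′, from GENCODE transcripts on GRCh38, with the stop codon in capitals.
QARS: ctgaaggaagacccaggaaaggtgTGA
EPRS: tacaccttatttggtcgcagctacTGA
FARSA: ccccctcccacacaggaggctgcgTGA
IARS2: tgtgcagaagttgtcagtggaaaaTAG
WARS: cggaagctgtccttcgactttcagTAG
QARS, EPRS and FARSA, which fell, ended in TGA, and WARS, the gene that rose, ended in TAG like IARS2, which fell. Over the 34 members with an annotated end, 16 had TGA, 9 had TAA and 9 had TAG. Of the 11 lower members among them, 4 had TGA, 4 had TAG and 3 had TAA, beside 49.1% TGA, 21.2% TAG and 29.7% TAA over the 8596 tested genes with an annotated end.

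The 8 enzymes of the multisynthetase complex were all at a negative log2 fold change, and 6 of them passed the test as lower, with a median of -0.21. Their median level was 333 CPM, and 40.8% of genes with a mean of at least 200 CPM were lower. QARS charges glutamine and is the gene with the largest decrease of the family (chr3:49095932-49104757, minus strand, GRCh38). Its footprints stood at 201, 188 and 190.3 CPM in sgCtrl replicates 1 to 3 and at 124, 131 and 134 CPM in sgN6AMT1 replicates 1 to 3. Every depleted library was below every control library by more than the spread within either group. The log2 fold change was -0.58 (SE 0.08, adjusted p = 1.02e-09).

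IARS charges isoleucine and lies at chr9:92210207-92293700 on the minus strand. It had 581, 621 and 557 CPM in the control libraries and 476, 492 and 461 CPM in the depleted ones. The groups did not overlap, and the log2 fold change was -0.30 (SE 0.05, adjusted p = 4.38e-06). EPRS is a bifunctional protein that charges both glutamate and proline (chr1:219968600-220046505, minus strand). It had 890.1, 957 and 869 CPM in the control libraries and 771, 761.7 and 793 CPM in the depleted ones. The decrease was smaller, a log2 fold change of -0.23 (SE 0.05, adjusted p = 0.000153), again with no overlap. Relative to EPRS, QARS counts stood at a log2 ratio of -2.23 ± 0.11 (SD, n = 3) in sgCtrl and -2.58 ± 0.05 in sgN6AMT1, so these complex members did not move by the same amount.

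LARS and KARS, the leucine and lysine enzymes, fell by less. LARS (chr5:146113034-146182650, minus strand) had 339.6, 353 and 326 CPM in sgCtrl and 309, 273 and 314 CPM in sgN6AMT1, and its log2 fold change was -0.19 (SE 0.06, adjusted p = 0.0127). KARS (chr16:75627474-75647665, minus strand) makes the lysine enzyme of both compartments from 1 gene, and its counts do not separate them. It had 366, 357 and 387 CPM in sgCtrl and 308, 340.0 and 322 CPM in sgN6AMT1, and its log2 fold change was -0.19 (SE 0.06, adjusted p = 0.0101). In both genes the groups did not overlap, but the gap between the nearest libraries was small. DESeq2, which called 12.3% of 10780 genes and 8 of the 39, did not pass LARS (adjusted p = 0.0779) or KARS (adjusted p = 0.0501). The edgeR call of LARS was lost without sgCtrl replicate 2 (adjusted p = 0.0955) and without sgN6AMT1 replicate 2 (adjusted p = 0.217). That of KARS was lost without sgCtrl replicate 3 (adjusted p = 0.0620) and without sgN6AMT1 replicate 1 (adjusted p = 0.0648). Both calls were also lost with scaling to total counts alone.

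MARS and RARS, the methionine and arginine enzymes of the complex, did not pass. MARS had 423, 411 and 429 CPM against 396, 381 and 398 CPM (log2 fold change -0.10, adjusted p = 0.174). RARS had 329, 336 and 327 CPM against 306, 302 and 303 CPM (log2 fold change -0.12, adjusted p = 0.122). In both, every depleted library was below every control library. Over all genes tested, 19.2% had groups apart in this direction, and all 8 complex enzymes did. That share was not computed for genes of like level, and calls as lower were more frequent at high CPM (40.8% from 200 CPM).

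The scaffold genes lay close together, at log2 fold changes of -0.21 to -0.23. AIMP1 (chr4:106316550-106349225, plus strand) had 144, 164 and 130.2 CPM in sgCtrl and 129, 131 and 120.0 CPM in sgN6AMT1. Replicate 2 of the depleted cells was above the lowest control, and the log2 fold change was -0.21 (SE 0.08, adjusted p = 0.0467). EEF1E1 (chr6:8079395-8102548, minus strand) had 148, 160.0 and 173 CPM in sgCtrl and 145, 138 and 127 CPM in sgN6AMT1, without overlap, at -0.23 (SE 0.08, adjusted p = 0.0245). AIMP2 had 83.9, 81.7 and 101 CPM against 77.6, 71.3 and 78.2 CPM, also without overlap, and did not pass at -0.23 (SE 0.10, adjusted p = 0.0993).

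The calls of AIMP1 and EEF1E1 changed when single libraries were left out, and both were lost with scaling to total counts alone. AIMP1 was not past the threshold by DESeq2 (adjusted p = 0.236), nor without sgCtrl replicate 2 (adjusted p = 0.459, log2 fold change -0.11), sgN6AMT1 replicate 1 (0.0592), 2 (0.0836) or 3 (0.134). EEF1E1 was not past it by DESeq2 (adjusted p = 0.138), nor without sgCtrl replicate 2 (0.0612) or 3 (0.141), or sgN6AMT1 replicate 2 (0.0706) or 3 (0.107). Counts of EEF1E1 and AIMP2 are also uncertain because other transcripts of the table share their sequence. Of the 28-base stretches of the EEF1E1 coding sequence, 72.1% also occur in the readthrough transcript EEF1E1-BLOC1S5, which itself was at -0.33 (SE 0.10, adjusted p = 0.0114; 0.0879 by DESeq2, 0.0563 without sgCtrl replicate 2 and 0.0616 without sgN6AMT1 replicate 3). With both summed, EEF1E1 was at -0.26 (SE 0.07, adjusted p = 0.00141). AIMP2 overlaps EIF2AK1, the heme-regulated eIF2α kinase, on the opposite strand and shares 38.6% of its stretches with it when both strands are searched; whether the counting used strand is not stated. EIF2AK1 rose, from 92.2 ± 14.1 to 128 ± 4.17 CPM (SD, n = 3; log2 fold change 0.45, adjusted p = 4.65e-05), in the direction opposite to the value of AIMP2. The other 32 members with an annotated coding sequence shared no such stretch.

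Outside the complex stood 12 cytosolic synthetases, with 3 lower (25.0%), 1 higher (8.33%) and a median of -0.06. Their median level was 357 CPM, and of genes with a mean of at least 200 CPM 40.8% were lower and 15.2% higher. VARS, the valine enzyme, which binds elongation factor eEF1, had the lowest adjusted p of the family (chr6:31777518-31795752, minus strand). It had 650.0, 621 and 615 CPM in sgCtrl and 449, 438 and 511 CPM in sgN6AMT1. The control libraries lay close together and the depleted ones far below, with replicate 3 nearest to them. The log2 fold change was -0.44 (SE 0.05, adjusted p = 2.05e-10).

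FARSA and FARSB encode the α and β subunits of the phenylalanine enzyme, a heterotetramer. FARSA (chr19:12922479-12934037, minus strand) had 331, 305 and 311 CPM in sgCtrl and 239, 255 and 259 CPM in sgN6AMT1, and its log2 fold change was -0.33 (SE 0.06, adjusted p = 1.58e-05). FARSB (chr2:222566899-222656092, minus strand) had 238, 255 and 259 CPM in sgCtrl and 242, 212 and 212 CPM in sgN6AMT1. Replicate 1 of the depleted cells was above replicate 1 of the controls, and the log2 fold change was -0.17 (SE 0.07, adjusted p = 0.0407). The call of FARSB was lost with DESeq2 (adjusted p = 0.177), without sgCtrl replicate 2 (0.133) or 3 (0.119) and without sgN6AMT1 replicate 2 (0.228) or 3 (0.125). Scaling to total counts alone ended it too (adjusted p = 0.183 by edgeR). The log2 ratio of FARSA to FARSB counts was 0.33 ± 0.12 (SD, n = 3) in sgCtrl and 0.18 ± 0.17 in sgN6AMT1, with overlapping libraries.

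WARS, the tryptophan enzyme, was the only member that rose (chr14:100334479-100375347, minus strand). It is known as an interferon-inducible gene as well as an ATF4 target. By the study, K562 is missing a stretch of the genome that holds the interferon genes. The part of interferon or of ATF4 in the level of WARS was not tested. Its footprints stood at 305, 299 and 314 CPM in sgCtrl and at 363, 410.4 and 375 CPM in sgN6AMT1. Every depleted library was above every control library, with a log2 fold change of 0.33 (SE 0.06, adjusted p = 6.34e-06). Of the 1191 higher genes, 80.9% lay further from 0. The log2 ratio of WARS to YARS counts, both free class I enzymes, moved from -0.36 ± 0.06 (SD, n = 3) to -0.11 ± 0.11.

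The other 8 free enzymes did not pass. YARS, the tyrosine enzyme, had 386, 399.9 and 389 CPM against 418, 407 and 409 CPM, apart and higher, at 0.07 (SE 0.06, adjusted p = 0.389). Over all genes 18.4% were apart in that direction, and of the 20 cytosolic enzymes YARS and WARS were. CARS, the cysteine enzyme, was apart and lower at -0.21 (SE 0.08, adjusted p = 0.0558). It passed without sgCtrl replicate 1 (adjusted p = 0.0359) and without sgN6AMT1 replicate 1 (adjusted p = 0.0359). HARS (-0.09), TARS (-0.07), AARS (-0.04), NARS (-0.03), GARS (0.03) and SARS (0.07) overlapped between the groups, with SEs of 0.05 to 0.08. TARS was at 664 ± 10.8 CPM in sgCtrl and 632 ± 30.1 CPM in sgN6AMT1 (SD, n = 3).

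**Figure D2:**
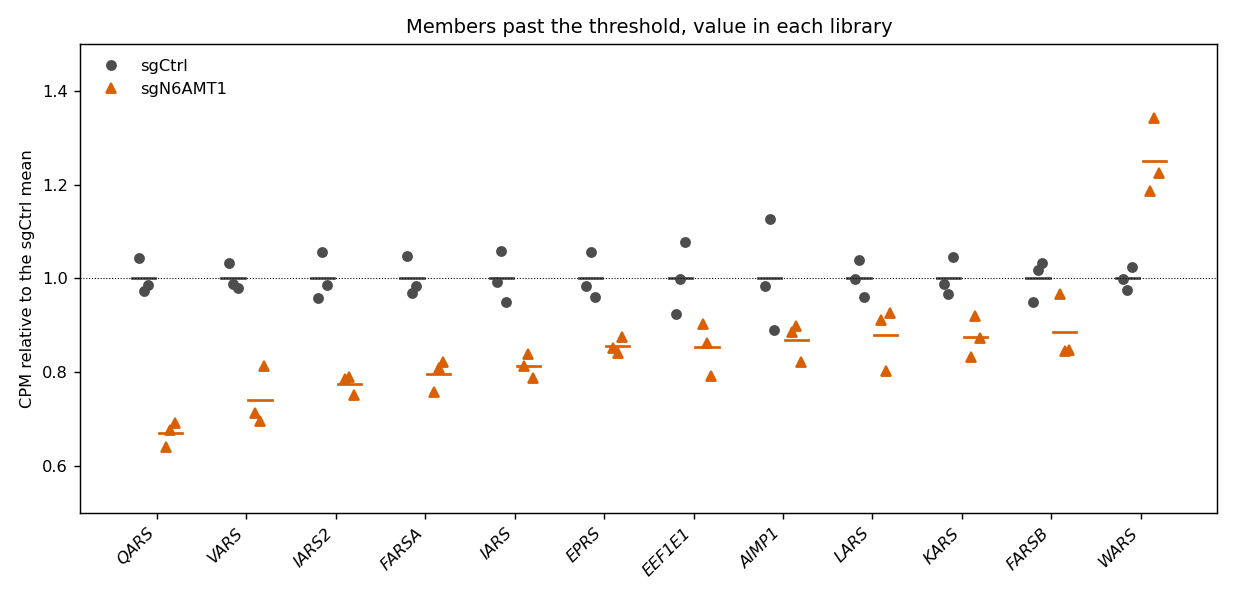
Footprint level in each library, as CPM divided by the sgCtrl mean of that gene, for 12 genes past the threshold; circles are the 3 sgCtrl libraries, triangles the 3 sgN6AMT1 libraries and short lines their means. All triangles of QARS and VARS lie far below the circles and those of WARS above, while AIMP1 and FARSB overlap.

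The mitochondrial enzymes charge the tRNAs that read the mitochondrial genome's own mRNAs. IARS2, the isoleucine enzyme, was their only call (chr1:220094132-220148041, plus strand). It had 247, 272 and 254 CPM in sgCtrl and 202, 203 and 194 CPM in sgN6AMT1, and its log2 fold change was -0.37 (SE 0.07, adjusted p = 4.26e-06). Every depleted library was far below every control library. The log2 ratio of IARS to IARS2 counts was 1.18 ± 0.05 (SD, n = 3) in sgCtrl and 1.25 ± 0.02 in sgN6AMT1.

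The other 15 ran from -0.28 to 0.14 on the log2 scale, and the 16 together had a median of -0.11 (-0.031 without sgCtrl replicate 2) with 11 negative. TARS2, the threonine enzyme, came nearest to a call, with 64.8, 56.9 and 54.2 CPM against 43.8, 53.6 and 49.9 CPM and no overlap (log2 fold change -0.25, SE 0.12, adjusted p = 0.111). CARS2 was apart and lower too, at 25.6, 26.2 and 24.6 CPM against 21.5, 21.6 and 21.2 CPM (log2 fold change -0.25, SE 0.17, adjusted p = 0.283). FARS2 (0.10) and HARS2 (0.12) were apart in the other direction, with adjusted p of 0.674 and 0.491. With IARS2 counted, 3 of the 16 were apart and lower and 2 apart and higher, beside 19.2% and 18.4% of all genes tested. SARS2 and VARS2 had the lowest estimates after IARS2, both -0.28, with overlapping libraries and SEs of 0.18 and 0.17. The remaining 9 (AARS2, EARS2, LARS2, MARS2, NARS2, PARS2, RARS2, WARS2 and YARS2) overlapped and lay between -0.17 and 0.14. PARS2 had the fewest counts of the family, 24 to 51 per library.

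**Figure D3:**
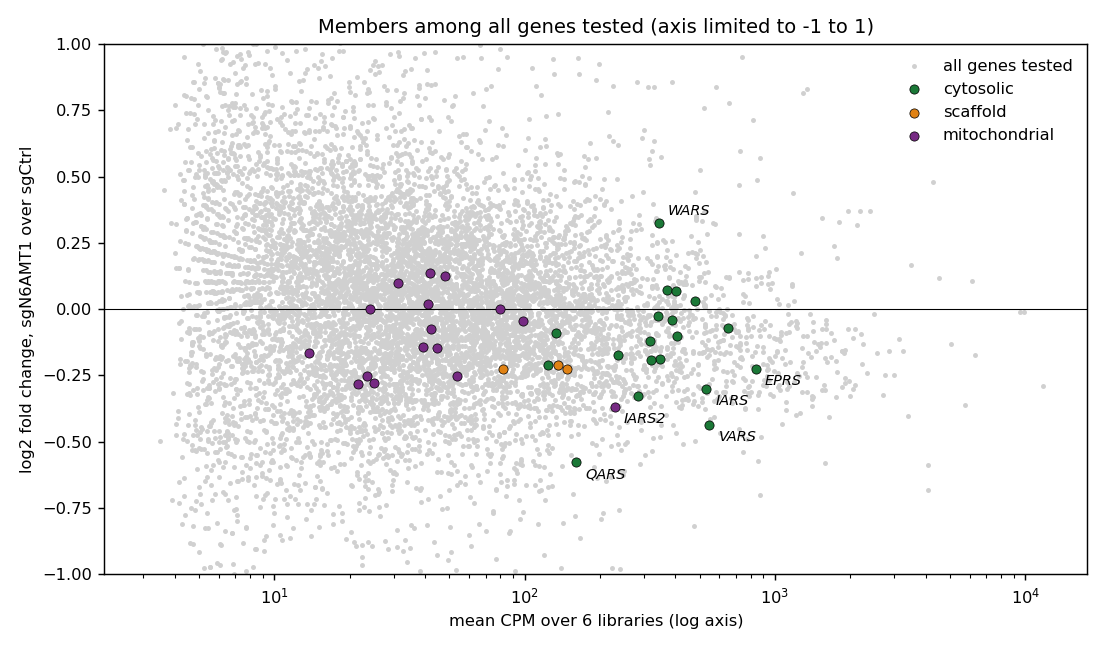
Log2 fold change, sgN6AMT1 over sgCtrl, against the mean CPM over the 6 libraries (log axis) for the 9202 genes tested (grey) and for 38 genes of the family (coloured by group). The cytosolic enzymes sit at the end with many counts, where the grey cloud is centred slightly below 0, and most mitochondrial enzymes lie between 10 and 50 CPM; 282 genes beyond the plotted range are not shown.

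Levels were compared between genes only per kilobase of coding sequence, for the 34 members with an annotated length. In sgCtrl the cytosolic enzymes had a median of 179 CPM per kb and ran from 83.1 (QARS) to 293 (TARS), and the mitochondrial enzymes had a median of 24.9 and ran from 10.0 (PARS2) to 84.9 (IARS2). In sgN6AMT1 the medians were 153 and 24.001. EEF1E1 stood first in the whole order, at 307 ± 23.3 CPM per kb (SD, n = 3), and its SD reached TARS at 293 ± 4.78, while YARS followed at 247 ± 4.51. At the low end of the cytosolic enzymes, QARS at 83.1 ± 3.11 and the mitochondrial IARS2 at 84.9 ± 4.30 did not differ by more than their spread, with HARS above them at 90.4 ± 3.28. In the depleted cells QARS was at 55.6 ± 2.21, next to the mitochondrial YARS2 at 56.0 ± 4.77. Of the cytosolic enzymes with an annotated length, QARS had the lowest footprint density in both groups.

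**Figure D4:**
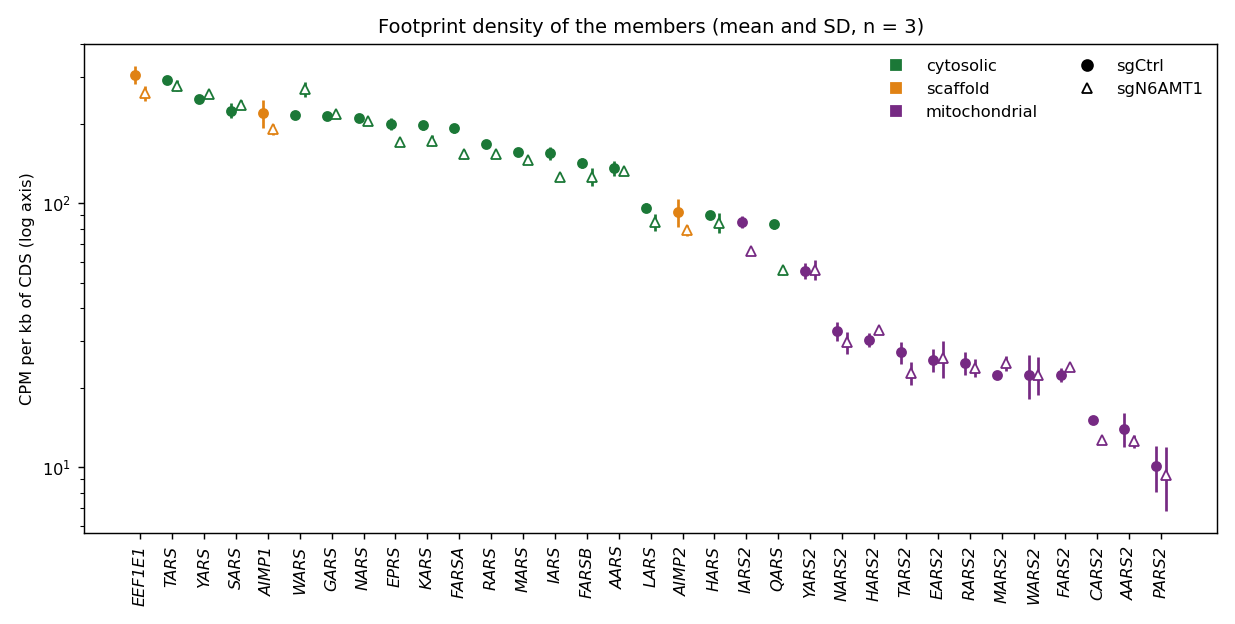
Footprint density of 33 members with an annotated coding sequence, in CPM per kb (log axis), mean and SD over 3 libraries, circles for sgCtrl and open triangles for sgN6AMT1, ordered by the sgCtrl mean. Cytosolic enzymes and scaffold genes lie to the left and mitochondrial enzymes to the right, with IARS2 at 84.9 among the lowest cytosolic ones and PARS2 last at 10.0.

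Summed over the family, cytosolic synthetases took 0.765%, 0.770% and 0.750% of all counts in sgCtrl and 0.721%, 0.714% and 0.721% in sgN6AMT1. The complex enzymes accounted for most of that difference, at 0.331 ± 0.00779% (SD, n = 3) and 0.294 ± 0.00113%. The free enzymes were at 0.430 ± 0.00498% and 0.425 ± 0.00398%, with overlapping libraries and with the rise of WARS inside the sum. Mitochondrial synthetases took 0.0878 ± 0.00365% and 0.0829 ± 0.00105%. The ratio of cytosolic to mitochondrial counts was 8.37 to 8.83 in sgCtrl and 8.60 to 8.82 in sgN6AMT1, so the balance between both sets overlapped. These sums carry no test, and genes with many counts, such as EPRS and VARS, weigh most in them.

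For 17 pairs of a cytosolic and a mitochondrial enzyme of the same amino acid, both log2 fold changes had the same sign in 10 and opposite signs in 7. Isoleucine was the only amino acid for which both enzymes were called. In 7 pairs the cytosolic enzyme was called without its partner, and in 9 neither was. The count ratio within a library was lower in every depleted library for phenylalanine (FARSA and FARSB over FARS2), histidine (HARS over HARS2) and methionine (MARS over MARS2). It was higher in every depleted library for serine (SARS over SARS2), and it overlapped in the other 12. Of the 17 ratios, 4 were thus apart and lower and 1 apart and higher, beside 19.2% and 18.4% of single genes tested. No such share was computed for ratios between genes. Both phenylalanine ratios rest on FARS2, which had 56 to 91 counts per library. For tryptophan, WARS rose, but WARS2 had 38 to 73 counts per library, and the log2 ratio lay between 3.48 and 4.00 in sgCtrl and 3.67 and 4.31 in sgN6AMT1.

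**Figure D5:**
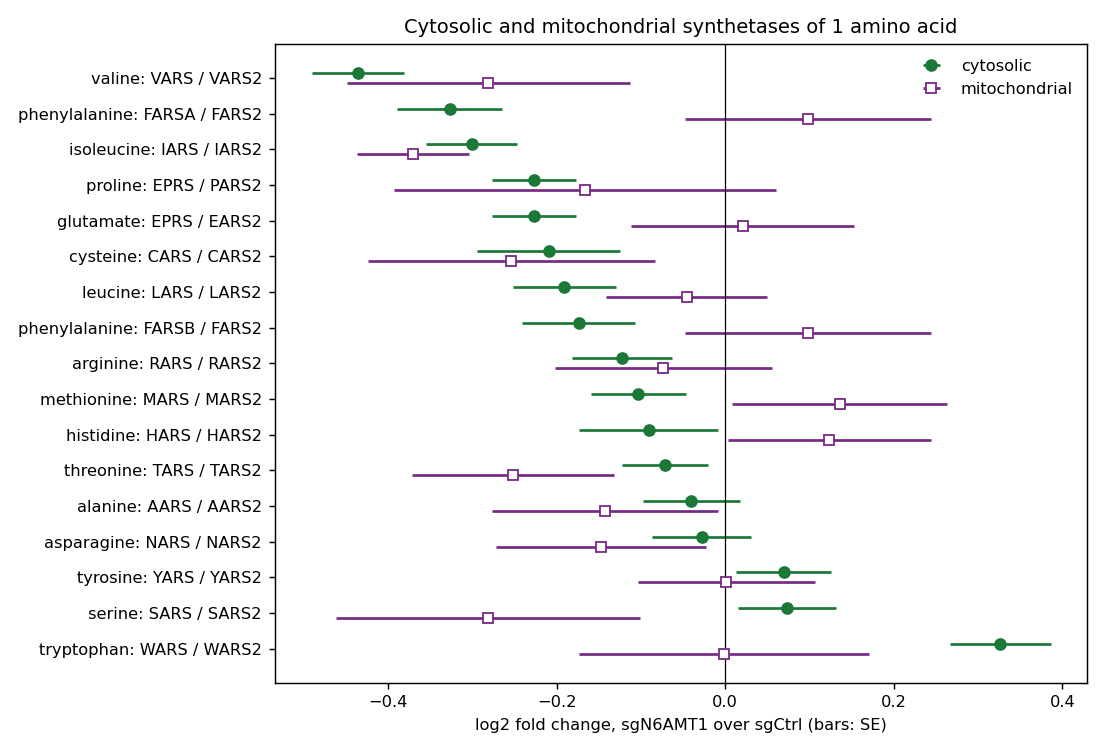
Log2 fold changes, sgN6AMT1 over sgCtrl, of the cytosolic (circles) and the mitochondrial (open squares) enzyme of each amino acid, with the SE as bars. Both isoleucine enzymes lie below 0 with bars that clear it, at -0.30 and -0.37, and WARS stands apart from WARS2 at 0.33 against 0.00.

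HARS and HARS2 are neighbours that point away from each other on chromosome 5, so that the start of the cytosolic and the start of the mitochondrial histidine enzyme share 1 stretch of DNA. The 84 bases between the annotated transcripts are shown because they separate a cytosolic from a mitochondrial member, at chr5:140691371-140691454 on GRCh38, plus strand, without capitals as no part is marked.
HARS-HARS2 gap: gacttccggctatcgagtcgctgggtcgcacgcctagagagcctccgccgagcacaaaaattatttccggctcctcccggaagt
HARS was at 138 ± 5.00 and 129 ± 11.1 CPM (SD, n = 3) and HARS2 at 46.0 ± 2.77 and 50.3 ± 0.316 CPM. Neither passed the test, at -0.09 (adjusted p = 0.457) and 0.12 (adjusted p = 0.491).

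ATF4 itself rose in the depleted cells, from 22.1, 29.3 and 25.1 CPM to 39.01, 39.3 and 33.1 CPM, a log2 fold change of 0.53 (SE 0.15, adjusted p = 0.00414; 0.0967 by DESeq2). The 13 cytosolic synthetases known as its targets held 4 lower genes (VARS, IARS, EPRS and LARS) and 1 higher gene (WARS), with a median of -0.07. The other 7 cytosolic synthetases held 5 lower genes and a median of -0.19. The lower shares were 30.8% and 71.4%, beside 40.8% of genes with a mean of at least 200 CPM. In a wider list of 27 genes of the ATF4 response, 24 were tested, 7 were higher and 4 lower, with a median of 0.14. These were 29.2% and 16.7%, beside 12.9% higher and 13.9% lower over all genes tested. The amino acid transporters SLC3A2 (0.52, adjusted p = 1.46e-13) and SLC1A5 (0.28, adjusted p = 3.64e-06) rose, as did the stress genes ATF3 (1.08, adjusted p = 0.00224; 0.0699 by DESeq2) and STC2 (0.58, adjusted p = 0.00276; 0.102 by DESeq2 and 0.0880 without sgCtrl replicate 2). Asparagine synthetase ASNS (-0.30, adjusted p = 7.99e-06), the proline synthesis enzyme ALDH18A1 (-0.47, adjusted p = 1.70e-05) and the transcription factor ATF5 (-1.35, adjusted p = 0.000288) fell.

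ATF4 and C/EBP dimers bind a composite element, the CARE, so its core TGATGNAA was searched on both strands of the 250 bases before the start of each gene in the RefSeq promoters of GRCh38.p14. Promoters were found by symbol for 33 of the 39 members, and only the first promoter listed for each was searched. The shares over all promoters count every one listed, so further promoters of a member are not covered. The core was present in AARS, IARS and YARS2, beside 3.14% of 35116 promoters. The matches are shown with up to 25 bases on each side, in the direction of the gene, with the match in capitals; in AARS and IARS it lies on the opposite strand.
AARS: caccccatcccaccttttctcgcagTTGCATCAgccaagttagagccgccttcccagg
IARS: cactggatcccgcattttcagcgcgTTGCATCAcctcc
YARS2: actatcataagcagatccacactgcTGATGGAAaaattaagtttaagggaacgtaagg
Of these genes IARS fell, and AARS and YARS2 did not pass the test, at -0.04 and 0.00. The matched bases are the same in AARS and IARS but stand at different distances, the first base 187 and 13 bases before the start. The interferon motifs GAS (TTCNNNGAA, in 6.57% of promoters) and the ISRE core (GAAANNGAAA, in 3.02%) were found in TARS, PARS2 and WARS2, and in EARS2, and not in these 250 bases of WARS.

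Other genes of the charging pathway were set beside the family. Of 12 listed, 9 were tested, 2 were lower (22.2%, beside 13.9% over all genes tested) and none was higher. XPOT, which exports tRNA from the nucleus, was at -0.23 (SE 0.08, adjusted p = 0.0240), a call that was lost by DESeq2 (0.14), without sgCtrl replicate 2 (0.143) and without sgN6AMT1 replicate 2 (0.0681) or 3 (0.137). The eEF1 complex receives the charged tRNA and carries it to the ribosome. Of its 4 genes, EEF1A1 (-0.29, adjusted p = 4.41e-10), EEF1B2 (-0.34, adjusted p = 6.55e-08) and EEF1G (-0.18, adjusted p = 0.00309) were lower. All 4 had a mean above 200 CPM, where 40.8% of genes were lower.

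Synthetases fall into 2 structural classes with unrelated catalytic folds. EPRS, which holds a domain of each class, was left out. The 18 members of class I had a median of -0.11 with 5 lower (27.8%) and 1 higher (5.56%). The 17 of class II had a median of -0.14 with 4 lower (23.5%). Over all genes tested, 13.9% were lower and 12.9% higher. With a mean of at least 200 CPM the shares were 40.8% and 15.2%, and both classes mix cytosolic and mitochondrial enzymes.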

How the data were processed

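Ribosome footprints of 6 K562 libraries, 3 sgCtrl and 3 sgN6AMT1, were analysed from 1 table. The authors deposited whole-number counts per transcript, neither normalized nor pooled. By the study's methods, adapters were trimmed with cutadapt, rRNA and tRNA reads removed after HISAT2 alignment to GRCh38, the rest aligned to canonical transcripts with bowtie2, and P-sites summed over coding sequences with riboWaltz. Counts by annotation overlap were also made, and which of them the table holds is not stated. PCR copies were not marked and their share was not measured, so counting error may be understated.

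Transcripts were matched by identifier to GENCODE release 44 on GRCh38, 17687 of 19330; a coding sequence was found for 34 of the 39 members, and the others (CARS, LARS2, SARS2, VARS and VARS2) took the location of the gene of that name. Genes with too few counts were removed (edgeR's filterByExpr, minimum 10), which left 9202. Groups came from the sample titles and were compared with edgeR 4.0.16 in R 4.3.3 (TMM factors, robust quasi-likelihood F test, 2-sided, Benjamini-Hochberg over all genes tested, threshold 0.05). SE derives from the F statistic. No list was tested. Alternatives used RLE, upper-quartile or no factors, DESeq2 1.42.0, limma-voom 3.58.1, other filters, a replicate block, each library left out, and trends with length and GC removed. The fit was tested on simulated data. The summing of EEF1E1 with its readthrough transcript was added after seeing the data.

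The members and the gene lists were chosen with earlier results of these data known. Members past the threshold are given with their value in every library and the others by ranges and counts, except that some genes are counted in the totals but not reported here. Other named genes were N6AMT1, ATF4 and up to 8 genes past the threshold with the smallest adjusted p in each further list. EIF2AK1 and EEF1E1-BLOC1S5 were named for shared sequence. ITGAM, EPCAM and the erythroid markers were named after their values were seen. Promoter sequences are from RefSeq (GRCh38.p14).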

Additional observations from a re-analysis of the deposited data

How the results depend on the processing

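Of the 13 members past the threshold, 8 passed in all 15 alternatives (among them QARS, VARS, IARS2, FARSA, IARS, EPRS and WARS), none of the 13 changed sign, and LARS, KARS, FARSB, AIMP1 and EEF1E1 lost the call in some. Of the other 26, CARS, TARS2 and AIMP2 passed in at least 1. LARS, KARS, FARSB, AIMP1 and EEF1E1 all lost it with DESeq2 and with total counts. The cytosolic enzymes had 7 to 10 lower genes with 1 library left out and 6 with DESeq2 or with total counts. With the median log2 fold changes scaled to total counts, the cytosolic enzymes were at -0.094 and the mitochondrial ones at -0.053. With a mean of at least 50 counts they were at -0.12 and -0.034, over fewer genes tested. With 1 library left out, the mitochondrial median ran from -0.15 to -0.031 (without sgCtrl replicate 2). The number of lower scaffold genes was 1 with upper-quartile factors, limma-voom, at least 50 counts and the replicate block, 0 with total counts and DESeq2, and 0 to 2 with 1 library left out. With trends in length and GC removed, 2 mitochondrial enzymes were lower. DESeq2 called 1324 genes, 585 higher and 739 lower. Where the cause of such a change is not given, it was not tested.

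Of the 26 members not past the threshold, 7 changed sign somewhere, none of them past it. Scaled to total counts, AARS was at 0.014, NARS at 0.027, LARS2 at 0.0091 and WARS2 at 0.053. WARS2 was also at 0.011 with upper-quartile factors, 0.0012 with limma-voom and 0.024 with at least 50 counts. YARS2 was at -0.0030 with DESeq2, -0.0034 with limma-voom, -0.0093 without a filter and -0.066 with the trends removed, and EARS2 at -0.050 with the trends removed. With 1 library left out, AARS ran from -0.073 to 0.0099, EARS2 from -0.089 to 0.13, LARS2 from -0.12 to 0.084, PARS2 from -0.38 to 0.040, WARS2 from -0.15 to 0.11 and YARS2 from -0.059 to 0.063.

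Libraries of the same number did not deviate together (correlations of -0.061, 0.020 and 0.016), so the numbers were not taken as pairs. The replicate block gave 2390 genes changed, with 8 cytosolic enzymes, 1 scaffold gene and 1 mitochondrial enzyme lower, and ended the calls of FARSB (adjusted p = 0.0588) and AIMP1 (adjusted p = 0.0612).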
